A study of Mus musculus with 9 samples.

Results

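The C/EBP (CCAAT/enhancer binding protein) family was read from the retinas of light-exposed mice through the probe sets of 5 genes chosen by symbol: Cebpd, Cebpb, Cebpa, Cebpg and Cebpz. A probe set is a group of array probes for the same transcript. Of these 5 genes, 4 had at least 1 probe set annotated with a single gene symbol, 8 probe sets in all out of 34945 such probe sets on the array. No value is given for Cebpz, since no probe set used here carried its symbol. The probe set with the highest mean over all 9 arrays stood for each gene, and all 4 genes passed the filter on dim probe sets, which kept 12761 of 18193 genes. Cebpa, with a mean log2 signal of 6.27, lay just above the filter value of 5.91.

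Arrays came from 3 groups of 3. Female albino BALB/c mice (Babl/c in the labels), aged 10 weeks, lived for 14 days under cold white light-emitting diodes (LEDs) with a colour temperature of 7378K, under warm white LEDs of 2954K, or in a relatively dark environment as controls. Both LED groups had an illuminance of 1000 lx and a cycle of 12 h with and 12 h without light. The labels give the controls the same cycle and no illuminance, so the light that reached them is not known. Each array measured a pool of 3 right-eye retinas on the Affymetrix Mouse Genome 430 2.0 design, so n = 3 pools per group. In pools of whole tissue, a change in the number of cells of a type and a change in RNA per cell cannot be told apart.

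C/EBP proteins are transcription factors with a basic leucine zipper, which bind DNA as dimers with each other or with related factors. Cebpb and Cebpd, which encode C/EBP beta and delta, are known as acute-phase factors whose genes are switched on by cytokines of the interleukin 6 type through STAT3. In the injured mouse retina, leukaemia inhibitory factor from Müller glia, the supporting glia of the tissue, is a well-known cytokine of that type. Cebpa encodes C/EBP alpha, known from myeloid cells, liver and fat, and Cebpg encodes C/EBP gamma, a short dimer partner that lacks an activation domain of its own. Cebpz shares the CCAAT-binding name but is no leucine zipper factor: its yeast relative works in ribosome assembly.

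On main probe sets Cebpd and Cebpb rose under both colour temperatures, Cebpd by about 4 log2 units and Cebpb by 1.22. Cebpa and Cebpg did not pass the test. A second Cebpd probe set gave 1.33 over both LED groups. The Cebpb call ended in 8 of 21 processing alternatives for 7378K and in 13 of 21 for 2954K. Cebpa read higher on all 6 LED arrays than on the 3 control arrays, but this is no support for a rise, since its LED arrays carried it past the filter. Calls were made with limma at a Benjamini-Hochberg adjusted p under 0.05 over all 12761 genes. Under 7378K light 2 of the 4 measured members rose and 0 fell, where 2.36% of all genes rose and 1.16% fell. Under 2954K light 2 of 4 rose and 0 fell, where 1.03% of all genes rose and 0.188% fell. Taking both LED groups against control, again 2 of 4 rose and 0 fell, where 2.41% of all genes rose and 1.05% fell. On their main probe sets Cebpd and Cebpb had every LED array above every control array, which was the case for 5.84% of all genes. Cebpa is not counted here, since its control mean lay below the filter value and it was kept through its LED arrays.

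Tissue markers and array quality differed between arrays and are given here once. Rod and cone genes were bright on all arrays, with summed linear signals of 4 rod genes between 75941 and 102777, which fits the labelled neurosensory retina, but the pigment epithelium gene Rpe65 was bright as well, at 9.73 to 11.83. Lens crystallin genes were highest on the third array of each group, where Crybb2 reached 9.99 in 7378K 3, 12.63 in 2954K 3 and 14.75 in control 3. The 3' minus 5' log2 difference of the Gapdh and beta-actin control probe sets, which grows when 5' ends are lost, was 1.55 to 1.80 on the 7378K arrays, 0.21 to 2.78 on the 2954K arrays and 0.20 to 0.42 on the control arrays. The same difference of the bacterial spike-in dap, which is not retinal RNA, was 2.70 to 2.77, 1.34 to 3.02 and 1.37 to 1.81. The cause of these differences was not tested. Summed signals of 8 microglia and macrophage genes were 7832 to 8579 on the 7378K arrays, 7362 to 7931 on the 2954K arrays and 2106 to 3083 on the control arrays.

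RefSeq promoter windows of build GRCm38.p6, from 250 bases before to 50 bases after the annotated start, were found for Cebpb, Cebpa and Cebpg. They are shown because Cebpb rose, while Cebpa and Cebpg, which are neighbours on chromosome 7 and read from opposite strands, did not pass the test. Capitals mark matches of an NF-kB pattern (GGG and CC with any 5 bases between) and of CCAAT, searched on both strands.
Cebpb, chr2:167688665-167688964, plus strand: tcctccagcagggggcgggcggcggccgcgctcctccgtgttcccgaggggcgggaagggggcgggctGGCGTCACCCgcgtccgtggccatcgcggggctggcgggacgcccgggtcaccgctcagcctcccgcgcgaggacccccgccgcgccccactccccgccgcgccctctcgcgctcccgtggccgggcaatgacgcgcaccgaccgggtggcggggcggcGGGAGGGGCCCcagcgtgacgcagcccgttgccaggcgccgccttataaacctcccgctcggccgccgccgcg
Cebpa, chr7:35119043-35119342, plus strand: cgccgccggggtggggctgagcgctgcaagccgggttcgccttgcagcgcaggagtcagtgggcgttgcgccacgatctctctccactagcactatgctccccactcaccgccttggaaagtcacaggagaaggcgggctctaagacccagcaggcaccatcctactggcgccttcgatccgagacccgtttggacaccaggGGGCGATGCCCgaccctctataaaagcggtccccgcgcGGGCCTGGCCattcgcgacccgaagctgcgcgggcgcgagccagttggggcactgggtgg
Cebpg, chr7:35056517-35056816, minus strand: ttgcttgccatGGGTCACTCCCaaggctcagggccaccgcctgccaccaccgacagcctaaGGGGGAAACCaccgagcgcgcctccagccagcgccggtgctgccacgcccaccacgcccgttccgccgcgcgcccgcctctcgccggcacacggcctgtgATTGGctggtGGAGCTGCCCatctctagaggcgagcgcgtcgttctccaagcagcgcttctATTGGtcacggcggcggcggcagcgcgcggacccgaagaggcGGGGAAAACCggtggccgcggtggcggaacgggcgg
All 3 windows were rich in G and C, at 80.7% for Cebpb, 67.3% for Cebpa and 71.7% for Cebpg, against a median of 52.7% over 32851 windows. The NF-kB pattern, present in 50.8% of those windows, matched in all 3, with overlapping matches on opposite strands merged in the capitals. CCAAT, present in 37.4% of windows, matched at 2 places in Cebpg, on its reverse strand as ATTGG, and not in the others. The patterns TTCNNNGAA (STAT), TTGCNNAA (C/EBP) and TGACGTCA (CRE), present in 8.30%, 10.8% and 1.79% of windows, had no match in these 3 windows.

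On the main probe sets, Cebpd had the largest change of the family. Its main probe set (1423233_at) gave log2 signals of 12.13, 12.22 and 11.89 on the 7378K arrays, 11.80, 11.64 and 12.39 on the 2954K arrays, and 7.71, 7.87 and 8.32 on the control arrays. The lowest LED array thus stood more than 3 log2 units above the highest control array. Cebpd averaged 12.08 ± 0.17 under 7378K light, 11.94 ± 0.40 under 2954K light and 7.97 ± 0.31 in control (log2 signal, SD, n = 3 each). Cebpd rose 17.3-fold under 7378K light (log2 difference 4.12 ± 0.20 SE, limma adjusted p = 4.7e-07) and 15.8-fold under 2954K light (3.98 ± 0.20 SE, adjusted p = 9.7e-07). In both comparisons it had the 4th largest rise of all 12761 genes, and its call held in all 21 processing alternatives of each comparison.

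The second Cebpd probe set (1456605_at) moved the same way by less. It read 8.37, 8.09 and 8.19 on the 7378K arrays, 8.07, 7.45 and 8.26 on the 2954K arrays, and 6.92, 6.35 and 6.96 on the control arrays, again without overlap. In a fit over all 22646 single-symbol probe sets above the filter, the difference of both LED groups from control was 1.33 (95% interval 0.82 to 1.83) for this probe set and 4.05 (3.65 to 4.44) for the main probe set, so that the intervals did not overlap. With the mean of its 2 probe sets, the Cebpd difference was 2.69. In the fit over all probe sets, the second Cebpd probe set passed for 7378K (1.47, limma adjusted p = 0.019) but not for 2954K (1.18, adjusted p = 0.095). The direction was thus shared by both probe sets, and the size and the call for 2954K depended on which was read.

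Cebpb, the other acute-phase member, rose less on its main probe set. Its main probe set (1418901_at) read 9.37, 9.34 and 9.43 on the 7378K arrays, 9.38, 8.85 and 9.91 on the 2954K arrays, and 7.92, 7.95 and 8.62 on the control arrays. The 7378K arrays lay within 0.1 of each other, while the 2954K arrays spread over more than 1 log2 unit, and 2954K 2 was the LED array closest to the controls. Cebpb rose 2.33-fold under 7378K light (log2 difference 1.22 ± 0.25 SE, limma adjusted p = 0.022) and 2.33-fold under 2954K light (1.22 ± 0.25 SE, adjusted p = 0.038). Over both LED groups the adjusted p was 0.0089, and the call ended without control 1 (0.064) or without control 2 (0.068).

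The Cebpb call was less firm than that of Cebpd. Leaving out 1 array ended it in 5 of 9 fits for 7378K (without control 1, control 2, or any of the 7378K arrays, adjusted p up to 0.11) and in 7 of 9 for 2954K (without control 1, control 2, 2954K 1, 2954K 3, or any of the 7378K arrays, up to 0.18). With that control probe set measure of lost 5' ends as a covariate, the Cebpb differences were 1.02 for 7378K (adjusted p = 0.26) and 1.07 for 2954K (adjusted p = 0.19). On 2954K 2 the measure was 0.21, within the control range of 0.20 to 0.42. That array read 8.85 for Cebpb, against a highest control value of 8.62, and 11.64 for Cebpd, against 8.32. It is 1 array, and the part of lost 5' ends in these values was not tested. A second probe set (1427844_a_at) read 6.91, 7.30 and 7.04 on the 7378K arrays, 6.02, 7.38 and 7.18 on the 2954K arrays, and 4.32, 4.88 and 5.90 on the control arrays. It differed by 1.94 from control over both LED groups. Its control mean of 5.03 lay below the filter value, and its LED arrays carried it past the filter. Against that value the LED mean was at least 2.09-fold higher. Its p-value (limma adjusted p = 0.039 over all probe sets) is not read as a result. For 7378K and 2954K singly it did not pass (adjusted p = 0.051 and 0.17). In that fit the main probe set passed for 7378K (adjusted p = 0.040) but not for 2954K (0.077).

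**Figure D1:**
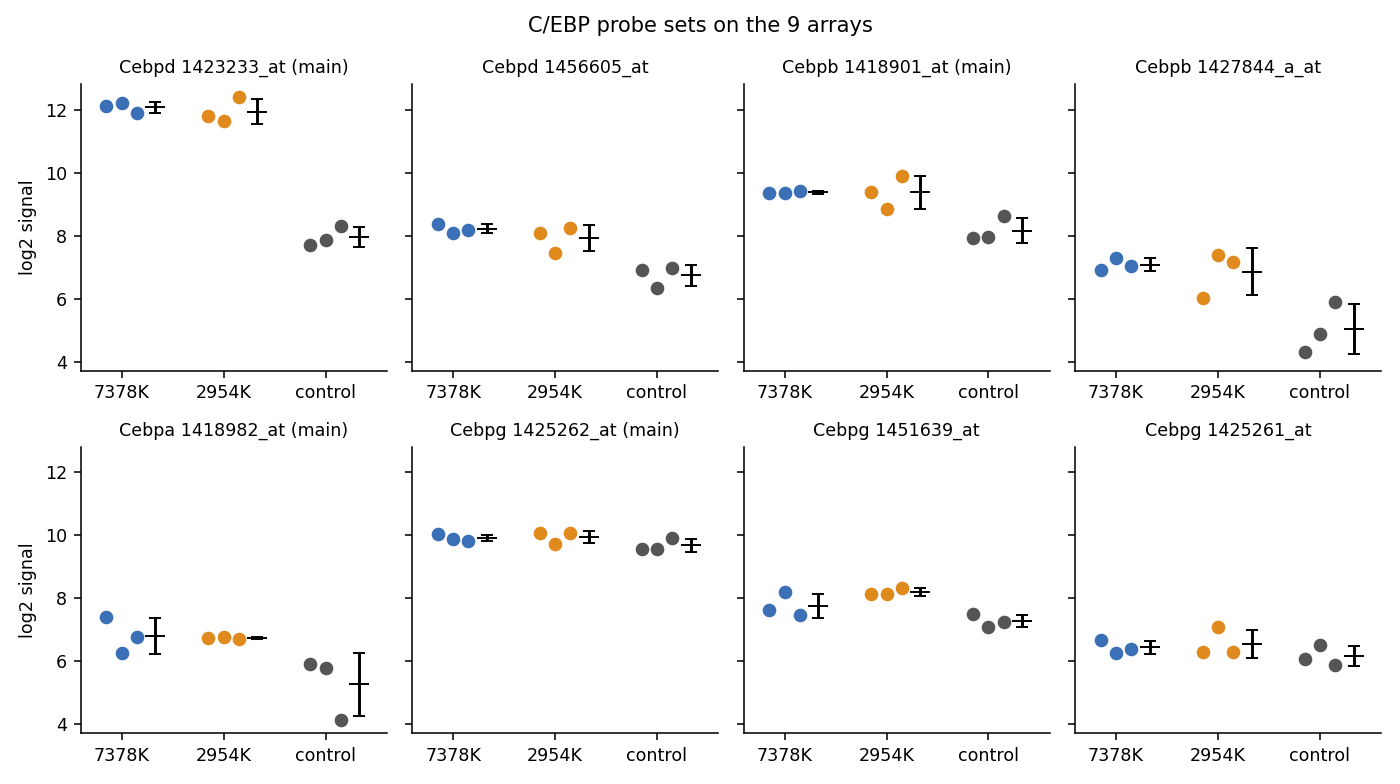
Log2 signal of the 8 C/EBP probe sets on each array (points; 3 arrays per group in the order of replicate number, with mean and SD beside them) for 7378K, 2954K and control. All LED arrays lie above all control arrays for both Cebpd probe sets, both Cebpb probe sets and Cebpa, while the main Cebpg probe set overlaps between groups. Cebpa and the dimmer Cebpb probe set had control means below the filter value and passed it through their LED arrays. On main probe sets 5.84% of all genes had every LED array above every control array.

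Cebpa was dim, and its difference did not pass the test. Its single probe set (1418982_at) read 7.40, 6.27 and 6.76 on the 7378K arrays, 6.75, 6.77 and 6.72 on the 2954K arrays, and 5.92, 5.77 and 4.12 on the control arrays. All LED arrays were above all controls, 7378K 2 and control 1 lay closest, and control 3 stood lowest. Its log2 difference was 1.54 ± 0.49 SE for 7378K (limma adjusted p = 0.10) and 1.47 ± 0.49 SE for 2954K (adjusted p = 0.22), and 1.51 ± 0.42 for both LED groups (adjusted p = 0.072). The control mean of 5.27 lay below the filter value, and against that value the 7378K mean was at least 1.87-fold and the 2954K mean at least 1.79-fold higher. Without control 3 the difference over both LED groups was 0.93 (adjusted p = 0.17), and with 50 added to each signal before the logarithm it was 0.80.

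Cebpg, the dimer partner, differed least. The main probe set (1425262_at) read 10.03, 9.89 and 9.82 on the 7378K arrays, 10.06, 9.73 and 10.06 on the 2954K arrays, and 9.56, 9.58 and 9.91 on the control arrays, so that control 3 overlapped with both LED groups. The log2 difference was 0.23 ± 0.14 SE for 7378K (limma adjusted p = 0.35) and 0.27 ± 0.14 SE for 2954K (adjusted p = 0.44), with 95% intervals of -0.07 to 0.53 and -0.03 to 0.57. Its other probe sets did not pass either. The first (1451639_at) read 7.63, 8.19 and 7.46 on the 7378K arrays, 8.12, 8.15 and 8.34 on the 2954K arrays, and 7.49, 7.08 and 7.26 on the control arrays, with a difference of 0.70 over both LED groups (adjusted p = 0.093 over all probe sets). The other (1425261_at) lay between 5.88 and 7.07 on all 9 arrays and overlapped between all groups.

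**Figure D2:**
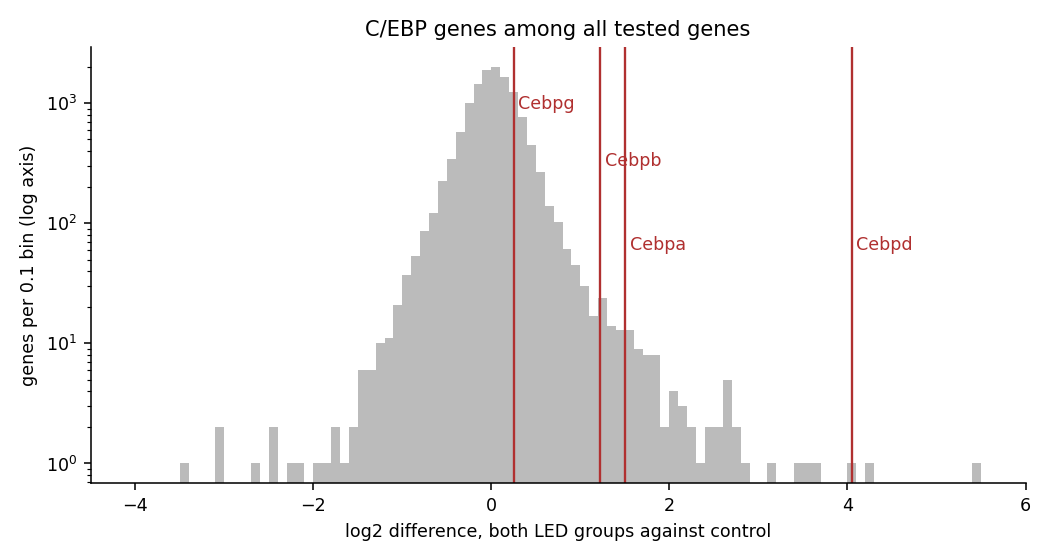
Distribution of the log2 difference of both LED groups from control over the 12761 tested genes (bins of 0.1, log count axis), with the 4 measured C/EBP genes as vertical lines. Cebpd at 4.05 lies in the far right tail with few other genes, Cebpa at 1.51 and Cebpb at 1.22 on the right shoulder, and Cebpg at 0.25 within the bulk.

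Whether the members changed unequally was tested directly. For each pair of genes the log2 difference within an array was compared between the 6 LED arrays and the 3 control arrays by a two-sided exact permutation test, whose smallest possible p is 0.0238. There were 6 pairs, and p-values were adjusted over them. Only the main probe set of each gene was used. Cebpd changed more than Cebpb by 2.82 ± 0.10 (SE) and more than Cebpg by 3.80 ± 0.12 (each exact p = 0.0238, adjusted p = 0.0286). On the second probe sets the differences over both LED groups were 1.33 for Cebpd and 1.94 for Cebpb. The Cebpb value rests on a control mean below the filter value. Against that value its LED mean was at least 2.09-fold higher, so no order is read from the second probe sets. That pair was not tested. Cebpb changed more than Cebpg by 0.97 ± 0.15, with the same exact and adjusted p. The 3 pairs with Cebpa rest on control values below the filter and are given as values only: Cebpd minus Cebpa was 2.54 ± 0.78, Cebpa minus Cebpg 1.26 ± 0.70 (0.57 without control 3) and Cebpb minus Cebpa -0.28 ± 0.83.

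The fourth comparison asked whether cold and warm light differed. Cebpd differed by 0.14 between 7378K and 2954K (95% interval -0.29 to 0.57), Cebpb by 0.0016 (-0.55 to 0.55), Cebpa by 0.06 (-1.003 to 1.13) and Cebpg by -0.04 (-0.34 to 0.26). In limma 0 of the 4 members rose and 0 fell, and 0 of them reached an unadjusted p under 0.05. Among all genes 0% were called in either direction, and 519 (4.07%) had an unadjusted p under 0.05. These p-values do not show that the colours act alike: with 3 pools per group, differences within the intervals could not be resolved.

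**Figure D3:**
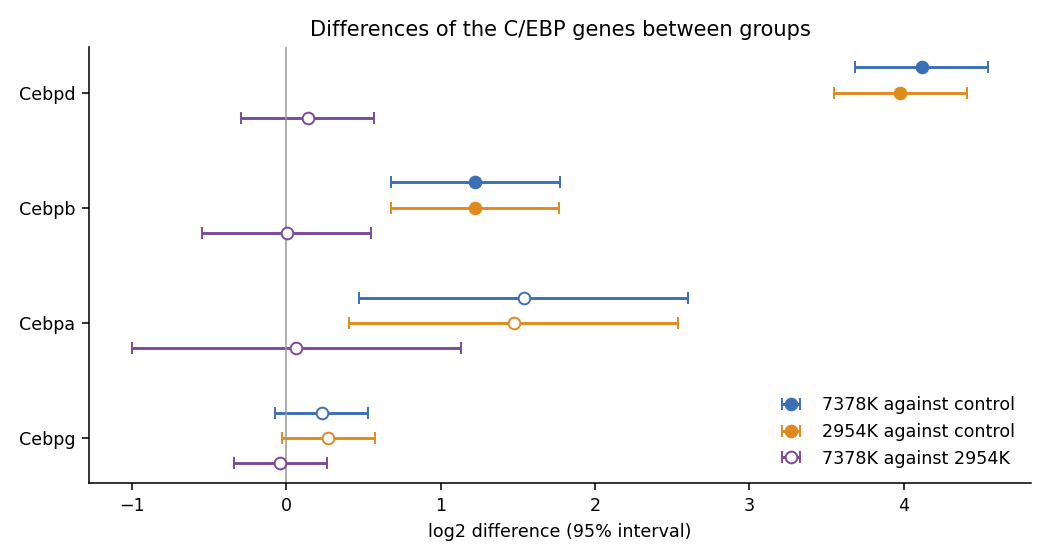
Log2 differences with 95% intervals of the 4 measured C/EBP genes for 7378K against control, 2954K against control and 7378K against 2954K (filled: adjusted p under 0.05; open: not called). Cebpd and Cebpb are called against control for both colour temperatures, and all 4 intervals between colour temperatures include 0.

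Genes whose signal followed the members most closely over the 9 arrays are named by Pearson's r, a description over arrays that fall into LED and control groups. For Cebpd they were Mab21l1, a gene of eye development (r = 0.993), Myo5b, an unconventional myosin (0.992), Fgf2os, transcribed opposite to Fgf2 (0.990), and Stat3 (0.989). With group means removed, r for these 4 was 0.49 to 0.65. Myo5b measured 10.37 on average under 7378K light, 10.20 under 2954K light and 8.73 in control. Mab21l1 differed by 0.31 over both LED groups, and by -0.15 with the mean of its probe sets.

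For Cebpb the closest genes were Mt1, a metallothionein that binds zinc (0.985), Hspb6, a small heat shock protein (0.980), Plekhg2 (0.979), and Tgm2, a transglutaminase that crosslinks proteins (0.978). Here r stayed at 0.92 to 0.95 with group means removed. Mt1, like Cebpb, was lowest on the second array (12.46) and highest on the third (13.44) among the 2954K arrays, and highest on the third array (11.78) among the controls. Tgm2 rose 3.65-fold over both LED groups (limma adjusted p = 0.0010).

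Cebpa was followed by Lifr, the receptor chain for leukaemia inhibitory factor (0.951), Grik3, a kainate receptor subunit (0.951), Pml, the scaffold of nuclear bodies (0.951), and Zfp536, a zinc finger factor (0.944). Cebpg was followed by Mthfd1, a folate enzyme (0.967), Ndufa7, a subunit of respiratory complex I (0.961), Yap1, a coactivator of the Hippo pathway (0.960), and Ahsa2, a relative of an HSP90 activator (0.959). For the Cebpg set, 0 of the 4 genes passed the limma test over both LED groups. Zfp536 differed by 0.20 and, with the mean of its probe sets, by -0.04.

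Genes of C/EBP biology outside the family were read as 6 lists. The first held acute-phase and inflammatory genes known as targets of C/EBP beta and delta. Of 14 measured, 6 rose and 0 fell under 7378K light (median 1.57, against 0.04 over all genes), and 5 rose and 0 fell under 2954K light (median 1.43, against 0.01). The shares of all genes to set beside each of the 6 lists were 2.36% risen and 1.16% fallen for 7378K. For 2954K they were 1.03% risen and 0.188% fallen. Over the processing alternatives the number risen ranged from 2 to 10 for 7378K and from 4 to 8 for 2954K.

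Socs3, the feedback inhibitor of JAK-STAT signalling, read 11.14, 11.17 and 10.82 on the 7378K arrays, 10.73, 9.97 and 10.53 on the 2954K arrays, and 6.74, 7.15 and 7.33 on the control arrays. It rose 12.6-fold over both LED groups (limma adjusted p = 3.1e-07). Serpina3n, an acute-phase protease inhibitor, read 9.18, 9.01 and 8.34 on the 7378K arrays, 8.66, 8.51 and 9.19 on the 2954K arrays, and 5.07, 5.93 and 7.05 on the control arrays, and rose 6.94-fold (adjusted p = 0.0010). The groups did not overlap for either gene, and both calls held in all 20 alternatives.

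A2m, a protease-trapping plasma protein, rose 5.36-fold over both LED groups (limma adjusted p = 0.00052). The metallothioneins Mt2 and Mt1 rose 3.03-fold and 2.56-fold. Lcn2, the iron-siderophore binder lipocalin 2, rose 2.81-fold (adjusted p = 0.040), a call that ended in 12 of 20 alternatives (adjusted p up to 0.27). Cp, the copper-carrying ferroxidase ceruloplasmin, rose 2.44-fold (adjusted p = 0.029), with 9 of 20 ended and control 3, at 11.50, above 2954K 2, at 11.39.

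The second list held signalling components upstream of Cebpb and Cebpd. Of 18 measured, 6 rose and 0 fell under 7378K light (median 0.33) and 3 rose and 0 fell under 2954K light (median 0.22), with 2 to 9 and 2 to 4 risen over the alternatives. Among all genes 2.36% rose for 7378K and 1.03% for 2954K. Stat3, the transcription factor, read 11.65, 11.73 and 11.54 on the 7378K arrays, 11.39, 11.24 and 11.45 on the 2954K arrays, and 9.80, 9.85 and 9.80 on the control arrays. It rose 3.21-fold over both LED groups (limma adjusted p = 3.1e-07), with the control arrays within 0.1 of each other.

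Osmr, the receptor chain for oncostatin M, rose 3.94-fold (limma adjusted p = 2.3e-06), although the mean of its probe sets differed by 0.31 (adjusted p = 0.73). Myd88, the adaptor of Toll-like and interleukin 1 receptors, rose 1.79-fold (adjusted p = 0.0064). Lif, the cytokine itself, read 7.00, 7.57 and 7.47 on the 7378K arrays, 6.86, 6.87 and 7.05 on the 2954K arrays, and 5.46, 2.76 and 5.16 on the control arrays. Its control mean lay below the filter value, and its LED arrays carried it past the filter. Against that value the LED mean was at least 2.34-fold higher, and its p-value is not read as a result. Lif is still counted among the 6 risen under 7378K light. Lifr differed by 0.36 (adjusted p = 0.064).

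The third list held partner leucine zipper factors and genes of the integrated stress response. Of 21 measured, 5 rose and 0 fell under 7378K light (median 0.36) and 3 rose and 0 fell under 2954K light (median 0.20), with 2 to 8 and 1 to 8 risen over the alternatives. The shares of all genes risen were 2.36% for 7378K and 1.03% for 2954K. Atf3, a stress-induced repressor and activator, read 9.84, 9.57 and 9.67 on the 7378K arrays, 9.21, 9.38 and 10.08 on the 2954K arrays, and 7.90, 7.09 and 7.80 on the control arrays, and rose 4.08-fold over both LED groups (limma adjusted p = 0.00022). The AP-1 factors Junb and Jun rose 2.45-fold and 1.61-fold. Jun lost its call without the third array of each group (adjusted p = 0.11). Xbp1, a factor of the unfolded protein response, rose 1.45-fold (adjusted p = 0.014), with 8 of 20 alternatives ending the call, and Atf5, named after its value was seen, rose 1.58-fold. Ddit3, the C/EBP homologous protein CHOP, which pairs with C/EBP factors and blocks their binding, read 10.95, 10.70 and 10.82 on the 7378K arrays, 10.48, 10.56 and 10.92 on the 2954K arrays, and 10.49, 10.39 and 10.48 on the control arrays. Its difference of 0.29 did not pass (adjusted p = 0.16).

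Regulators of C/EBP protein level and activity formed the fourth list. Of 23 measured, 0 rose and 0 fell in limma for either colour temperature, with medians of 0.02 and -0.01, although the alternatives gave up to 5 risen and 5 fallen for 7378K. At an unadjusted p under 0.05 there were 12 of 23 for 7378K, against 22.6% of all genes, and 5 of 23 for 2954K, against 13.1%. Trib1, which brings C/EBP alpha to its ubiquitin ligase, read 7.30, 8.28 and 7.80 on the 7378K arrays, 7.62, 8.83 and 8.39 on the 2954K arrays, and 8.87, 8.67 and 9.27 on the control arrays. Its difference was -0.90 (adjusted p = 0.091), and that of Cop1, the ligase, -0.35 (adjusted p = 0.10). The mRNA-decay factors Zfp36 and Zfp36l1 differed by 0.53 (adjusted p = 0.085) and 0.46 (adjusted p = 0.066).

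Among 11 measured myeloid and adipocyte targets of C/EBP alpha, Csf1r and Lyz2 rose and 0 fell under either colour temperature (median -0.06 for 7378K and 0.22 for 2954K), with 0 to 4 and 1 to 2 risen over the alternatives. These counts stand beside 2.36% of all genes risen for 7378K and 1.03% for 2954K. Csf1r, the receptor for macrophage colony-stimulating factor, rose 2.47-fold over both LED groups (limma adjusted p = 0.00057), and Lyz2, the lysozyme of macrophages, 3.19-fold (adjusted p = 0.0023). Csf2ra, a receptor chain for another myeloid growth factor, differed by 0.53 (adjusted p = 0.068), and Acaca, an enzyme of fatty acid synthesis, by 0.28 (adjusted p = 0.12). Of the microglia and macrophage markers, 6 of 7 measured rose under either colour temperature, with summed signals as given above. Of the neutrophil markers 0 of 5 passed the filter, with summed signals of 194 to 262 on the 7378K arrays, 152 to 220 on the 2954K arrays and 83.3 to 163 on the control arrays. Müller glia markers summed to 31862 to 37188 on the 7378K arrays, 30495 to 37269 on the 2954K arrays and 31978 to 36366 on the control arrays, sums to which the bright genes Glul and Rlbp1 contribute most. Of these 5 markers 2 rose for 7378K (median difference 0.46) and 1 for 2954K (median 0.30), against the same 2.36% and 1.03% of all genes. Gfap, the filament of reactive glia, read 8.27, 8.48 and 8.08 on the 7378K arrays, 7.85, 7.69 and 7.75 on the 2954K arrays, and 6.15, 7.25 and 6.91 on the control arrays. The part of these cells in the C/EBP values was not tested.

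**Figure D4:**
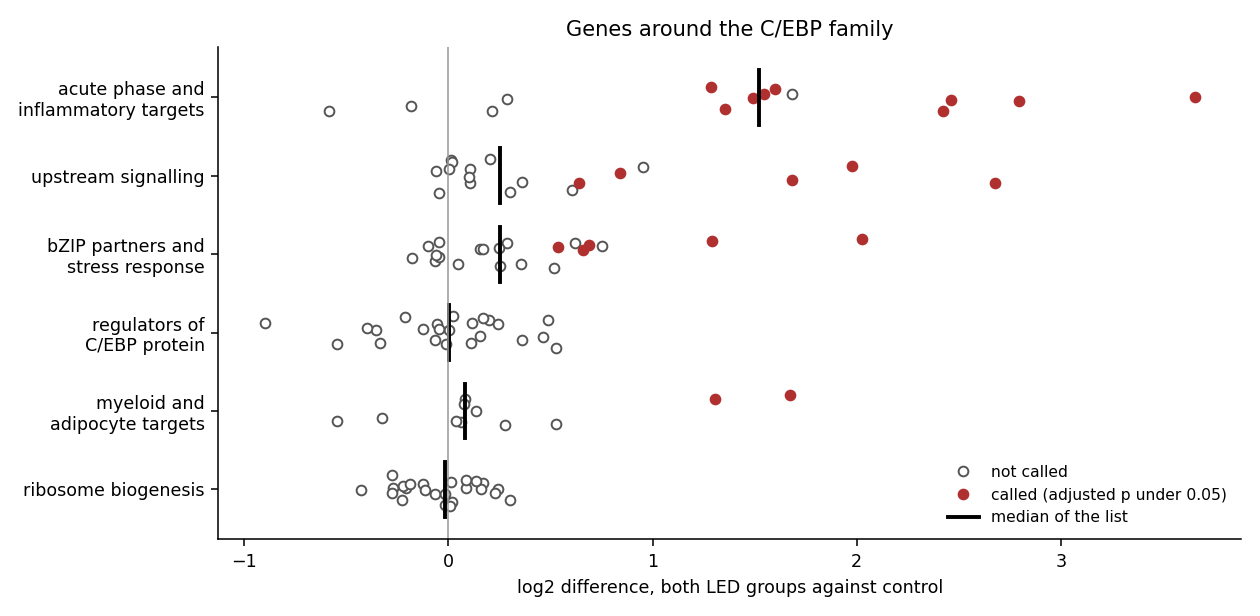
Log2 difference of both LED groups from control for each measured gene of the 6 lists (filled: adjusted p under 0.05; open: not called; bar: median of the list). Called genes lie to the right of 0 in the acute-phase, upstream, leucine zipper and myeloid lists, and there are none in the regulator and ribosome lists.

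Ribosome biogenesis genes, the setting of Cebpz, stayed uncalled. Of 24 measured, 0 rose and 0 fell in limma under either colour temperature, with medians of -0.02 for 7378K and -0.03 for 2954K. Nolc1, a nucleolar chaperone, differed by -0.43 over both LED groups (adjusted p = 0.058), Ncl, nucleolin, by -0.22 (adjusted p = 0.15), Pes1, a factor of large subunit assembly, by -0.28 (adjusted p = 0.18) and Rrp1b, a nucleolar protein, by 0.24 (adjusted p = 0.20). The number called over the alternatives was at most 1 risen and 3 fallen for 7378K and 0 in both directions for 2954K. At an unadjusted p under 0.05 there were 4 of 24 for 7378K and 1 of 24 for 2954K, to be read against the same 22.6% and 13.1% of all genes.

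**Figure D5:**
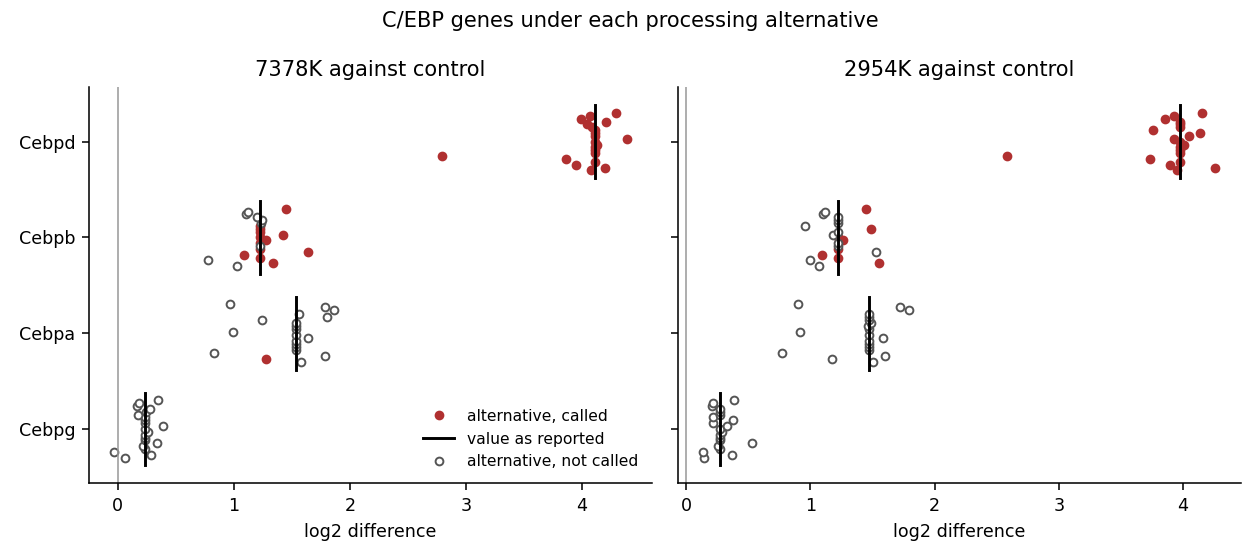
Log2 differences of the 4 measured C/EBP genes against control for 7378K and 2954K in each processing alternative (filled: called; open: not called), with the reported value as a black line. Cebpd is called in every alternative, with the mean of its probe sets giving the lowest values of 2.79 and 2.58, Cebpb in 13 of 21 for 7378K and 8 of 21 for 2954K, and Cebpa and Cebpg in at most 1.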

How the data were processed

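The deposited values are on a log2 scale. MAS5 and affy appear in the submitters' processing notes, with no version or role, and the values bear the mark of MAS5 scaling: back on the linear scale, the 2% trimmed mean was 500.002 on array control 1 and 500.0 to the first decimal on the other 8. The 45101 probe sets comprised 64 controls, 34945 with a single gene symbol, 932 with several and 9160 with none in the platform annotation. Detection calls were not analysed here. Precision is limited by having 3 arrays per group. The filter removed genes whose probe set mean lay under the 40th percentile. All 9 arrays entered 1 limma (version 3.58.1) model of group means, with eBayes and an intensity trend, in R 4.3.3. Pair tests used scipy 1.17.1, and figures matplotlib 3.10.9, in Python 3.11.15. The fit was tested on simulated data. P-values cover the spread between pools of 3 retinas.

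Alternatives were other filters (none, or the 60th percentile), quantile normalization, log2(signal + 50), averaging all probe sets of a gene, no intensity trend, array weights, only the groups compared, 3' minus 5' covariates (Gapdh with beta-actin, or the bacterial spike-in dap), a replicate block, each array left out, and, added after seeing the data, the third array of each group left out and the list counts under all of these. Members and lists were chosen with earlier results of these data known. The genes named were the members, the 4 smallest p-values of each list over both LED groups, the 4 highest correlations with each member (predicted genes left out), and Socs3, Stat3, Ddit3, Lcn2, Cp and Serpina3n, with C3 not analysed here. A planned comparison of protein sequences was not made.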

Additional observations from a re-analysis of the deposited data

How the results depend on the processing

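Cebpd against control kept its direction and its call in every alternative run, at 2.58 to 4.26 for 2954K and 2.79 to 4.38 for 7378K. Cebpb kept its direction in all of them but lost the call for 2954K with the 3' minus 5' covariate (1.07), the dap covariate (0.997), the mean of probe sets (1.52), no intensity trend (1.22), only the groups compared (1.22) and the third arrays left out (1.19). It lost it for 7378K with both covariates (1.02 and 0.78) and no intensity trend (1.22), and for both LED groups with both covariates (1.05 and 0.89) and without control 1 or control 2. Leaving out 1 array gave 0.96 to 1.49 for 2954K, 1.10 to 1.45 for 7378K and 1.09 to 1.45 for both. Array weights brought calls for Cebpa under 7378K light (1.27) and Cebpg over both LED groups (0.33). Cebpg for 7378K was -0.030 with the dap covariate.

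For 7378K against 2954K, where 0 calls were made, signs turned for Cebpb with the 3' minus 5' covariate (-0.046), array weights (-0.21), the dap covariate (-0.22) and log2(signal + 50) (-0.0028), for Cebpd with array weights (-0.061) and for Cebpg without the third arrays (0.062). With 1 array left out the ranges were -0.23 to 0.33 for Cebpa, -0.26 to 0.27 for Cebpb, -0.017 to 0.36 for Cebpd and -0.15 to 0.015 for Cebpg. Elsewhere Mab21l1 (-0.15) and Zfp536 (-0.038) turned with the mean of probe sets, and Mthfd1 (-0.0043) with the dap covariate.

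Between members, Cebpa minus Cebpg, which rests on control values below the filter, was 0.57 with log2(signal + 50) and 1.34 with quantile normalization, with neither passing the test, and Cebpb minus Cebpa turned to 0.29 with log2(signal + 50). Leaving out 1 array gave 2.77 to 2.88 for Cebpd minus Cebpb, 2.09 to 3.29 for Cebpd minus Cebpa, 3.73 to 3.86 for Cebpd minus Cebpg, 0.89 to 1.09 for Cebpb minus Cebpg, 0.57 to 1.64 for Cebpa minus Cebpg and -0.73 to 0.52 for Cebpb minus Cebpa. Without a control array the smallest p those tests allow is 0.0714.

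Counts over all genes moved more. For 7378K they were 301 risen and 148 fallen, with 1675 and 1013 under array weights, 1350 and 824 with only the groups compared, 111 and 25 with the 3' minus 5' covariate, 66 and 11 with dap, 161 and 46 without the trend, 128 and 127 with the mean of probe sets, and 112 to 909 and 30 to 608 with 1 array left out. For 2954K they were 132 and 24, with 278 and 106 under array weights, 64 and 4 with only the groups compared, 68 and 14 with the mean of probe sets, 94 and 7 without the trend, 92 and 10 with the 3' minus 5' covariate, 104 and 13 with dap, and 75 to 589 and 4 to 308 with 1 array left out. For both LED groups they were 307 and 134, with 1225 and 716 under array weights, 151 and 94 with the mean of probe sets, 213 and 53 without the trend, 125 and 28 with the covariate, 111 and 20 with dap, and 136 to 1204 and 28 to 643 with 1 array left out. Without the third arrays 124 rose for 7378K, 87 for 2954K and 148 for both. Between the colours 0 to 14 rose and 0 to 15 fell with 1 array left out. The causes were not tested.

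With the replicate block Cebpd, at 4.05 over both LED groups, and Cebpb, at 1.22, kept their calls, and the 7378K counts were 394 and 244. The labels do not say that a number marks a shared litter, batch or day. The correlations of the deviations of same-numbered arrays from group means were 0.06 to 0.33, over 0.1 in 5 of 9 pairs, against -0.27 to 0.09 and 0 of 18 for arrays of different numbers. An array correlated best with its own number in 17 of 18 cases, a hint of pairing from the data and not from the design. The cases share correlations, so they are not independent. The third arrays, with the highest lens crystallin signals of each group, correlated at 0.15 to 0.33, and the second arrays of 2954K and control at 0.26. The part of lens tissue in this was not tested.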
